A study of Rattus norvegicus with 6 samples.

Results

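Heme oxygenase 1 (Hmox1, ENSRNOG00000014117) is 1 of the 34052 features in a table of transcript levels from cultured rat heart muscle cells, and it was chosen by its row in that table and by its measured difference between control and erastin libraries. The cells were neonatal rat ventricular cardiomyocytes, the contracting muscle cells of the lower heart chambers taken from newborn rats. The 3 control libraries came from cells for which the sample labels give no agent, and the 3 erastin libraries from cells given 10 µM erastin for 24 h. The depositors call the comparison erastin against vehicle, and the labels do not name a vehicle. Erastin is a small molecule that blocks cystine uptake and is used to bring about ferroptosis, a form of cell death that depends on iron and lipid peroxidation, and the study asked how expression profiles differ when cardiomyocytes undergo it. Both groups share the cell type, and the labels give no strain, sex or culture of origin for any library, so the spread between libraries of a group, and the p-values that rest on it, may be technical. Since the values described here are the ones that chose Hmox1, they are given as a description, with no test of Hmox1 itself.

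Heme oxygenase 1 is the inducible enzyme that opens the heme ring, releasing ferrous iron, carbon monoxide and biliverdin, which biliverdin reductase then turns into bilirubin. Its gene is a classic stress gene, held down by the repressor BACH1 and switched on by NRF2, a transcription factor that oxidants and electrophiles free from its inhibitor KEAP1. Its products cut both ways in ferroptosis, because bilirubin is an antioxidant while the freed iron can feed lipid peroxidation unless ferritin stores it or ferroportin exports it. In the heart Hmox1 is known as a gene of low expression that rises after oxidative injury.

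Hmox1 lay above 90.3% to 91.9% of the detected features in control libraries and was one of the most abundant transcripts in erastin libraries. Levels are FPKM, the fragments of a transcript scaled by its length and by the library total, so that levels of different genes can be set beside each other. In control libraries Hmox1 was at 61.4 FPKM in replicate 1, 58.4 FPKM in replicate 2 and 51.4 FPKM in replicate 3. In erastin libraries it was at 4363 FPKM in replicate 1, 4463 FPKM in replicate 2 and 4347 FPKM in replicate 3. All 3 erastin libraries were high and all 3 control libraries low, and the groups lay far apart, with 61.4 FPKM as the highest control and 4347 FPKM as the lowest erastin value. Control libraries averaged 57.0 ± 5.12 FPKM and erastin libraries 4391 ± 63.1 FPKM (both SD, n = 3), a 77.0-fold higher mean. Over the 9 possible pairs of an erastin with a control library the fold lay between 70.8 and 86.9. The control values, which spread over 1.19 times from lowest to highest, gave more of that range than the erastin values, which spread over 1.03 times. On the log2(FPKM + 1) scale the difference was 6.25 (SE 0.061). Standard errors of log2 differences come from the limma fit, which draws each feature's variance toward that of other features. The median difference over all 13576 tested features was 0.13 on that scale, and with libraries centred by their median log ratios Hmox1 differed by 6.12.

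**Figure D1:**
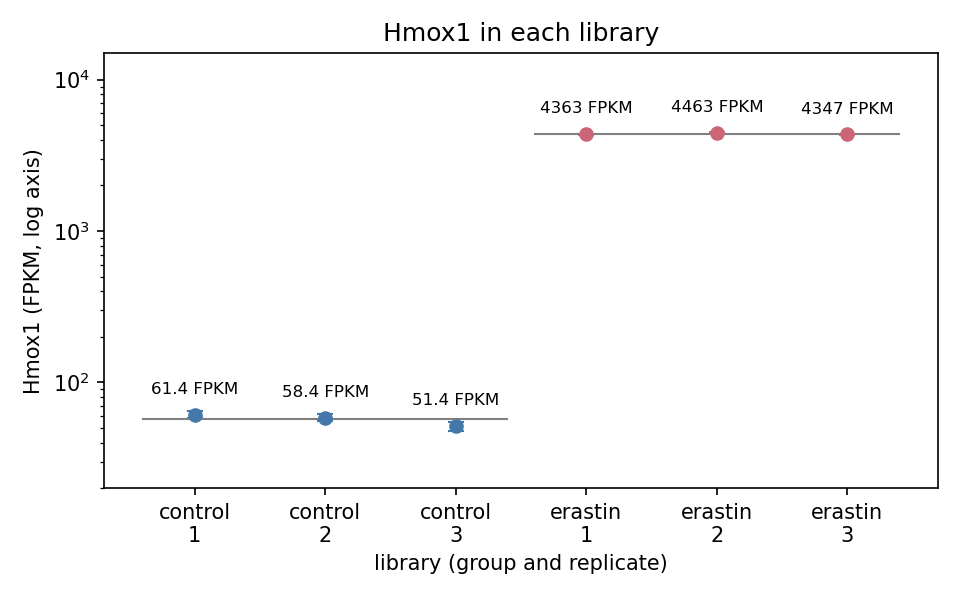
Hmox1 in FPKM (log axis) in each of the 6 libraries, with bars for the 95% counting interval (most are smaller than the point) and a grey line at each group's mean. The 3 control libraries sit between 51.4 and 61.4 FPKM and the 3 erastin libraries between 4347 and 4463 FPKM.

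A large part of the transcriptome differed between the groups. Of the 13576 tested features, 42.3% rose and 24.1% fell at an adjusted p under 0.05 (limma, Benjamini-Hochberg), and in 45.7% the lowest erastin library was above the highest control library, as it was for Hmox1. The balance of these calls depended on scaling, since 63.7% of the called features rose as deposited and 49.8% after centring (4253 rose and 4287 fell). Nothing about Hmox1 is read from those shares, since its own contrast chose it. RNA was taken from whole cultures, so fewer cells of a type and less RNA per cell cannot be told apart for any transcript here.

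The counts behind Hmox1 were large in every library. Reads recovered from the FPKM steps numbered 1106, 1363 and 926 in control replicates 1, 2 and 3. They numbered 76173, 83999 and 75747 in erastin replicates 1, 2 and 3. The library totals by which FPKM divides lay between 11126968 and 14914827. A read here is a counted fragment, as FPKM defines it, and these totals need not equal the sequencing depth. In control cells 1 read in 10405, 10943 and 12426 came from Hmox1 in replicates 1, 2 and 3. In erastin cells it was 1 read in 146, 143 and 147. The share of reads was thus 0.00893 ± 0.000802% for control and 0.688 ± 0.00989% for erastin (SD, n = 3). As a share of FPKM, which gives short and long transcripts equal weight, it was 0.0105 ± 0.000899% and 0.812 ± 0.0129% (SD, n = 3). The counted length of Hmox1 was 1566 bases, and 35.7% of the tested features were shorter.

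The spread of Hmox1 between libraries was wide for its level in control cells, and in erastin cells it was below the median of the most abundant features. The control values had a coefficient of variation (the SD as a percentage of the mean) of 8.98%. Counting alone would give 2.71% to 3.29% at these reads. The 95% exact Poisson interval of control replicate 3 was 48.1 to 54.8 FPKM. It did not reach that of control replicate 1, 57.8 to 65.1 FPKM, or that of control replicate 2, 55.3 to 61.5 FPKM. The intervals of control replicates 1 and 2 overlapped. Such intervals cover counting error only. Among 1530 other tested features with a control mean within 1.5-fold of Hmox1 the median coefficient of variation was 3.43%, and 1427 of them (93.3%) varied less than Hmox1 did.

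In erastin libraries the coefficient of variation of Hmox1 was 1.44%. Counting alone would give 0.345% to 0.363%. Erastin replicate 2 was highest, and its interval of 4433 to 4494 FPKM did not overlap with those of replicate 1 (4332 to 4394 FPKM) and replicate 3 (4316 to 4378 FPKM). Few features lay within 1.5-fold of Hmox1 in erastin libraries, so a different set was used than in control. Among the other 99 features in the 100 with the highest erastin means, the median was 2.75% and 24 (24.2%) varied less than Hmox1. The difference in spread between the groups was not tested, and each coefficient rests on 3 libraries.

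**Figure D2:**
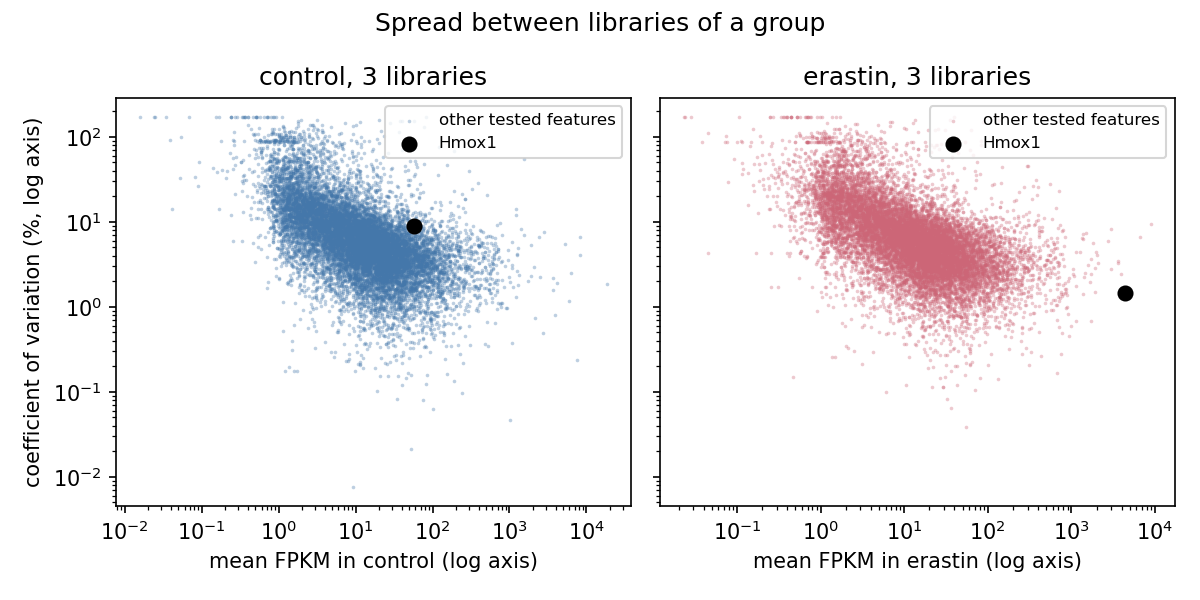
Coefficient of variation between the 3 libraries of a group (%, log axis) against the mean FPKM of that group (log axis), for control and erastin libraries, with 1 coloured point for each other tested feature and Hmox1 in black. Hmox1 lies at 8.98% in the upper part of the cloud in control and at 1.44% in erastin libraries; features with a coefficient or mean of 0 cannot be drawn on log axes.

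By rank within each library, Hmox1 stood at place 1537, 1627 and 1838 in control replicates 1, 2 and 3, among 18915 to 19370 features with a value above 0. It therefore lay above 91.9%, 91.6% and 90.3% of the detected features in these control libraries. In erastin libraries it ranked 3 in all 3 replicates. Only 2 of the 1659 features with a higher control mean than Hmox1 still had a higher mean in erastin libraries, and Hmox1 passed the other 1657. The control rank moved over 301 places between libraries although FPKM moved by 1.19 times, because many features share levels near that of Hmox1.

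**Figure D3:**
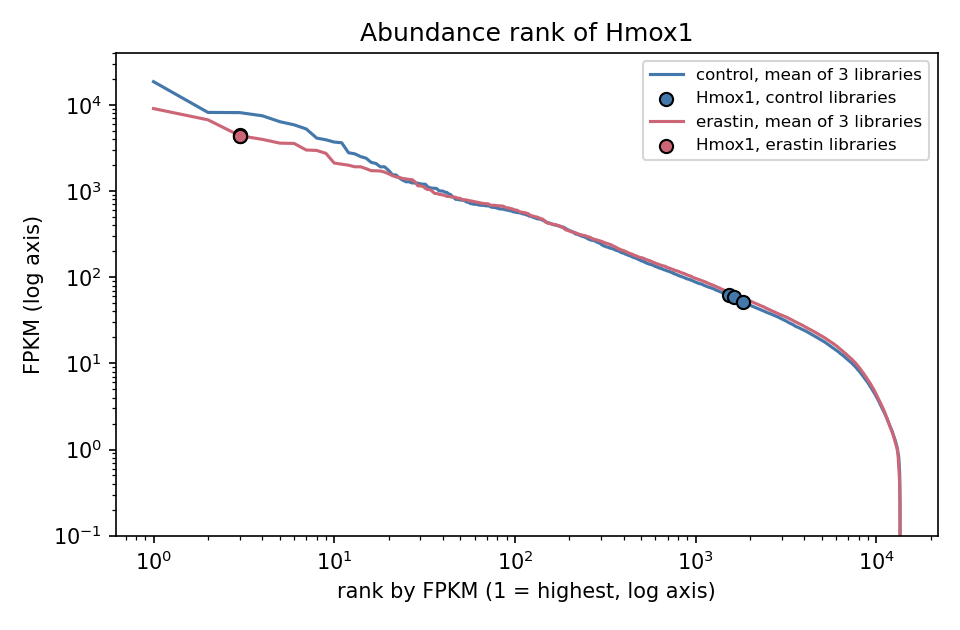
FPKM (log axis) against rank by FPKM (log axis) for tested features, as a line for the mean of the 3 control and of the 3 erastin libraries, with Hmox1 of each library as a point. The 3 control points lie at ranks 1537 to 1838 and the 3 erastin points coincide at rank 3.

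The features around Hmox1 in erastin libraries had been far above it in control libraries. The feature at rank 1, ENSRNOG00000034234, was at 9950, 8266 and 8962 FPKM in erastin replicates 1, 2 and 3. In control libraries it was at 18325, 18470 and 18980 FPKM, the highest of all features there too, and its mean was 2.05-fold lower in erastin libraries (log2 difference -1.04, SE 0.063). The feature at rank 2, ENSRNOG00000043866, was at 6271, 6695 and 7159 FPKM in erastin replicates 1, 2 and 3. It was at 611, 634 and 618 FPKM in control libraries and at control rank 82, and its mean was 10.8-fold higher in erastin libraries (log2 difference 3.43, SE 0.048). Hmox1 reached 69.6%, 66.7% and 60.7% of its level in erastin replicates 1, 2 and 3.

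Just under Hmox1 came ENSRNOG00000033734, at 3892, 3962 and 4083 FPKM in erastin replicates 1, 2 and 3. Hmox1 was 12.1%, 12.6% and 6.47% above it in replicates 1, 2 and 3, an order that held in each library. That feature had been at 4933, 5335 and 5495 FPKM in control libraries, at control rank 7, and its mean was 1.32-fold lower in erastin libraries (log2 difference -0.40, SE 0.044). These features were picked by their erastin level, so no p is given for them. Of the 10 features with the highest erastin means, 5 were also among the 10 highest in control and 8 among the 100 highest. Hmox1 was the 1 that came from beyond control rank 1000, and the next lowest control rank among the 10 was 150. Which genes these features are was not analysed here, because the reference table paired 0 of the feature IDs with a symbol.

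**Figure D4:**
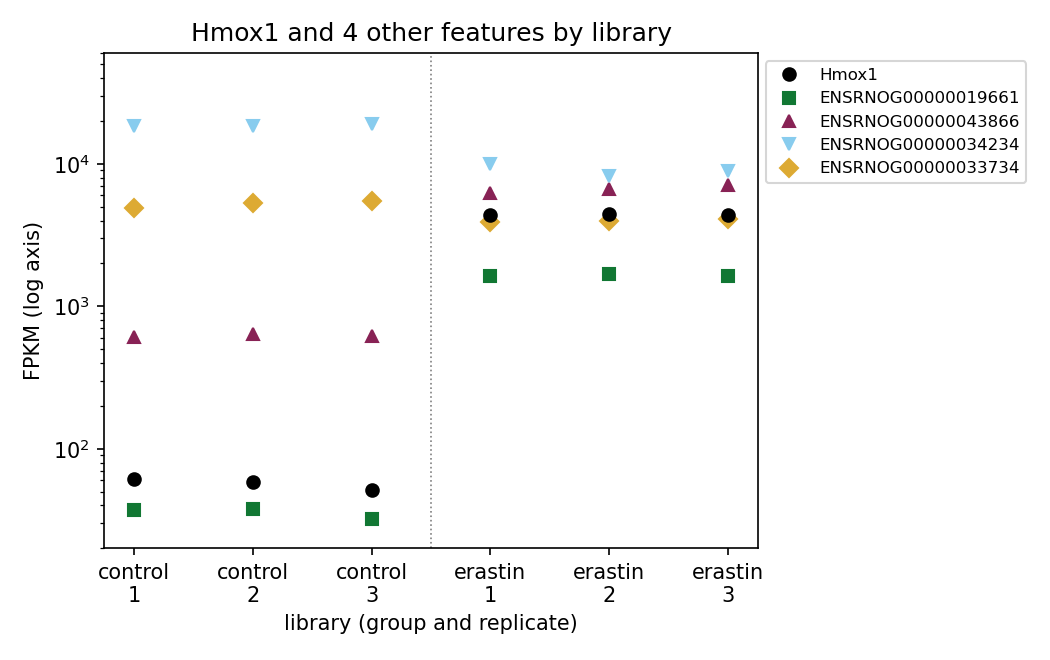
FPKM (log axis) of Hmox1 and of 4 other features in each of the 6 libraries, with a dotted line between control and erastin libraries. Hmox1 lies near ENSRNOG00000019661 in control libraries and between ENSRNOG00000043866 and ENSRNOG00000033734 in the erastin libraries.

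Features with the control level of Hmox1 are described here to show how such features differed. All rose less than Hmox1, but Hmox1 was chosen by its own contrast, so its place above them is no separate result. Among 639 other tested features with a control mean within 1.2-fold of Hmox1 (47.5 to 68.4 FPKM), 285 rose, 214 fell and 140 did not pass the adjusted p under 0.05 (limma). That is 44.6% rising, against 42.3% of all tested features, and 33.5% falling, against 24.1%. On the deposited scaling the median log2 difference of this set was 0.05, against 0.13 over all tested features. Its quartiles were -0.25 and 0.36, and the counts were not repeated with centring. In this set 31 features were higher by at least 1 on the log2 scale and 3 by at least 2. The largest rise among them was 3.60, from 55.3 FPKM in control to 682 FPKM in erastin. The next-largest rise was 2.51, against 6.25 for Hmox1. The largest fall was a log2 difference of -3.37, and falls of at least 1 were not counted. The 6 features nearest to Hmox1 in control mean, 3 above and 3 below, spanned 56.9 to 57.1 FPKM in control and 30.9 to 86.9 FPKM in erastin libraries, where 1 rose, 4 fell and 1 did not pass (limma adjusted p under 0.05).

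**Figure D5:**
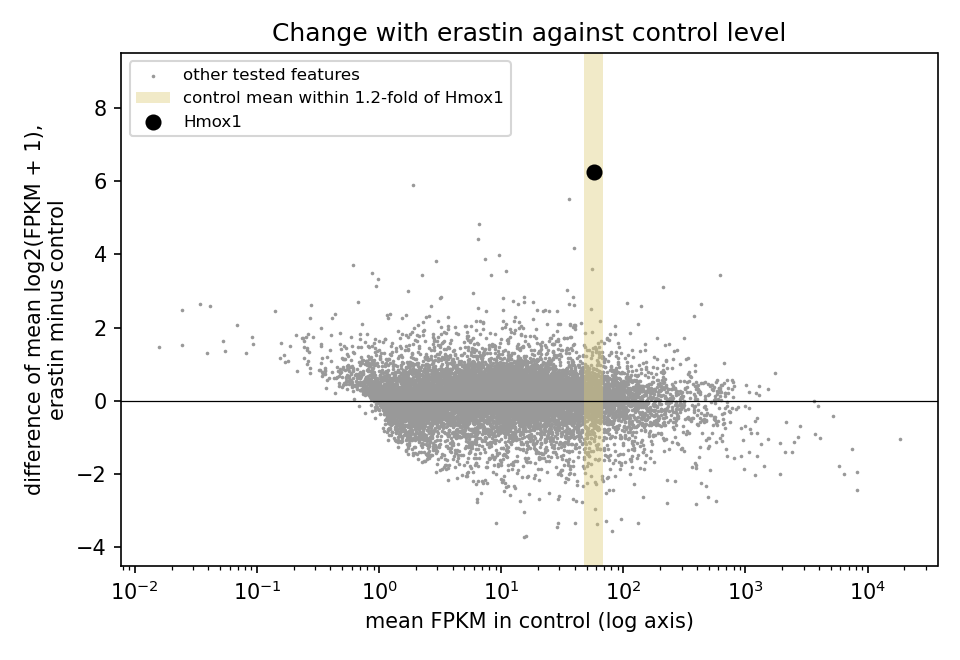
Difference of mean log2(FPKM + 1), erastin minus control, against the mean control FPKM (log axis) for tested features, with features listed at 0 in all control libraries left out. Hmox1 lies at 6.25. The shaded band holds features within 1.2-fold of its control mean, and the others there lie between -3.37 and 3.60.

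Measured by the rise in FPKM, Hmox1 gained 4334 FPKM, the second-largest gain of all features. The largest was 6087 FPKM, and Hmox1 gained 1.88 times as much as the feature after it, at 2304 FPKM. Its gain was 3.79% of the summed gains of the 12685 features whose mean was higher in erastin libraries. Because FPKM divides by the library total, reads of Hmox1 lower the values of all other transcripts. Leaving its reads out of the erastin totals would raise the log2 values of all others by 0.010, small beside the median difference of 0.13.

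Measured by fold of mean FPKM, 6 tested features had a larger fold than Hmox1, and 7 more were listed at 0 in every control library. Of these 6, 5 had at most 2 reads in any control library. The other had 12 to 21 reads in a control library and a control mean of 1.91 FPKM, the highest among the 6. Folds of at least 10 were found for 53 tested features, and 6 of these had a control mean of at least 10 FPKM, Hmox1 among them. Such a cut leaves out the 6 features with larger folds. Hmox1 was also chosen by its contrast, so its place within the cut is no separate result. Within features at that control level the fold of 77.0 for Hmox1 was the largest, and the next was 46.5.

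That next feature, ENSRNOG00000019661, was also the one whose pattern was most like that of Hmox1. Likeness was measured as Pearson's r of log2(FPKM + 1) over the 6 libraries, which fall into a control and an erastin cluster, so that r mostly follows the difference between groups and is given as a description. ENSRNOG00000019661 was at 37.2, 37.7 and 32.2 FPKM in control replicates 1, 2 and 3. It was at 1635, 1696 and 1644 FPKM in erastin replicates 1, 2 and 3. As with Hmox1, control replicate 3 was the lowest control library and erastin replicate 2 the highest erastin library. Control replicate 2 was above replicate 1 and erastin replicate 3 above replicate 1, the reverse of Hmox1. The feature was picked by r over these libraries, so likeness within groups is no separate result. Its log2 difference was 5.50 (SE 0.059) and its r with Hmox1 was 0.99996. The ratio of Hmox1 to ENSRNOG00000019661 in FPKM was 1.65, 1.55 and 1.60 in control replicates 1, 2 and 3. It was 2.67, 2.63 and 2.64 in erastin replicates 1, 2 and 3. A higher ratio in erastin libraries follows from the larger fold of Hmox1, by which it was chosen, and is no separate result.

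The 5 features most like Hmox1 by r had folds of mean FPKM from 3.64 to 46.5 and r from 0.99988 to 0.99996. Such high r was common, since 1288 of the 13575 other tested features (9.49%) had r above 0.99 and 848 had r below -0.99.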

How the data were processed

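RNA was measured in 6 libraries, 3 control and 3 erastin, with groups taken from sample titles. Poly(A) RNA was fragmented, the second strand was marked with dUTP and paired ends were sequenced, per the labels' protocols. The authors deposited FPKM. The submitters' processing notes name HISAT2 2.0.5 and DESeq2 without saying what each was used for. Which genome build, annotation and counter were used is not given in the sources used here, and coordinates are left out.

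FPKM steps were solved for whole reads, counted lengths and library totals in Python 3.11.15 with numpy 2.4.6, and 99.996% of the FPKM above 0 equalled whole reads within a relative tolerance of 1e-06. Features that reached 1 FPKM in 3 or more libraries entered a limma 3.58.1 fit (R 4.3.3) of log2(FPKM + 1) with a trended, robust prior and Benjamini-Hochberg adjustment at 0.05. This scale understates changes of low features. Recovery and test were checked on simulated data in which only a small part of the features changed. That check does not cover a shift of many features between groups.

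Hmox1, the lists and the features compared were chosen with earlier results of these data known. Features were named by rule: the highest r with Hmox1 and the neighbours in mean level, at most 2 that rose and 2 that fell. Gene lists, cell type markers, the Hmox1 to Hmox2 ratio and sequences were planned but not analysed here, since symbols matched 0 feature IDs. The labelled cell type was therefore not checked against markers. Alternatives were a replicate block, leaving out single libraries, a pseudocount of 0.1, no filter, a filter at a mean of 5 FPKM, centring, voom on recovered reads, ranks among Ensembl-numbered features and shares of reads.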

Additional observations from a re-analysis of the deposited data

How the results depend on the processing

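The log2 difference of Hmox1 was 6.25, and over 12 alternatives it lay between 6.12 and 6.30. The lowest value, 6.12, came from centring each library on its median log ratio, which moved it by 0.13. The SD between replicates on this scale was 0.13 in control, 0.021 in erastin and 0.093 pooled. Leaving out 1 library gave 6.17 to 6.30, with 6.17 without control replicate 3. With a pseudocount of 0.1 and with voom on recovered reads it was 6.27. Hmox1 had the largest log2 difference of all tested features in 10 of these 12 alternatives, the second-largest with a pseudocount of 0.1 and the sixth-largest with voom. Its share of the library was 0.0105% in control and 0.812% in erastin by FPKM, and 0.00893% and 0.688% by recovered reads, where long transcripts weigh more. Among Ensembl-numbered features its mean control rank was 1657, against 1667 among all.

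The number of tested features that rose was 5744, and 4253 to 5916 over 12 alternatives. The number that fell was 3267, and 2381 to 4287. Of the features called, 63.7% rose, and 49.8% did with centring (4253 rose and 4287 fell). With the replicate block 5583 rose and 3185 fell, and the log2 difference of Hmox1 was 6.25 (SE 0.052). The labels do not pair the libraries, and deviations of same-numbered libraries correlated with r of -0.03, 0.07 and 0.03. The 4 other named features, chosen by likeness or erastin level, had the same sign in all 12 alternatives, and their choice rests on the same libraries. Control values of Hmox1 rest on 926 to 1363 reads, and 3 libraries a group limit what its spread can show.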
